A study of Homo sapiens with 6 samples.

Results

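The nucleoporins are the proteins that build the nuclear pore complex, the channel through which proteins and RNA pass between nucleus and cytoplasm. Their genes were taken from the deposited expression table by symbol: NUP followed by a number and at most 1 letter, together with TPR, RANBP2, AAAS, SEH1L, SEC13, POM121, NDC1, RAE1 and AHCTF1. The rule found 31 genes among 29435 rows, and 30 of them passed the filter on low values. The cells were cultures labelled HepG2, an established human line that comes from a cancer of the liver. The treated group received saikosaponin A (SsA), a triterpenoid saponin of Bupleurum root, at 20 µM for 4 h, and its control group received the vehicle DMSO for 4 h, with 3 polyadenylated RNA libraries per group. All 6 libraries share the line and the medium, and nothing in the labels tells whether replicates were grown separately. The p-values therefore cover only the spread between these samples, which may be technical.

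A pore is a stack of rings set in the nuclear envelope. Outer rings of Y-shaped complexes and an inner ring form the scaffold, membrane nucleoporins anchor it, and proteins rich in phenylalanine-glycine repeats fill the channel and form its permeability barrier. Filaments on the cytoplasmic side and a basket on the nuclear side serve as docking sites for transport receptors and for exported mRNA. Many scaffold nucleoporins are long-lived proteins, so mRNA levels after a few hours need not follow protein levels.

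Of the 30 tested nucleoporin genes, 13 were lower and 8 were higher in SsA than in DMSO libraries in the quasi-likelihood test of edgeR, called where the p adjusted by Benjamini-Hochberg over all tested genes was below 0.05. POM121 had the largest fall among them (2.49-fold lower in SsA) and NUP37 the largest rise (1.45-fold higher). The 13 lower genes are 43.3% of those tested, where 27.9% of all 11427 tested genes were lower, and the 8 higher genes are 26.7%, where 25.9% of all tested genes were higher. The share of nucleoporin genes that were higher is therefore near the background. In all 21 called nucleoporin genes the SsA and DMSO libraries did not overlap, which is 70% of those tested, against 62.8% of all tested genes. These counts rest on counts scaled by TMM, a method that centres most genes on no change. By limma on the deposited FPKM (fragment counts scaled by gene length and library size) the split was 0 higher and 13 lower, where 8% of all tested genes were higher and 32.6% lower. On TPM (FPKM rescaled to a common library sum) it was 0 higher and 10 lower, where 0.429% of all tested genes were higher and 21.4% lower. At an unadjusted p below 0.05, limma gave 0 higher and 14 lower on either scale. The median log2 fold change of all tested genes was 0.03 with TMM, -0.11 on FPKM and -0.31 on TPM, so the rises below are relative to the TMM scaling. Without SsA replicate 3, and likewise without DMSO replicate 1, 5 nucleoporin genes were higher and 13 lower by edgeR.

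Transcript length bears on these values, because over 10040 tested protein-coding genes the log2 fold change fell with the length of the longest transcript (Spearman -0.72, a description across genes that share the same 6 libraries). The nucleoporin genes have long transcripts, from 2016 nt for AAAS to 11711 nt for RANBP2, with a median of 5304.5 nt against 3348 nt for all tested genes. A second edgeR fit with offsets that remove each library's trend on length is therefore given beside the first. With the length offsets 8 nucleoporin genes were higher and 5 lower (26.7% and 16.7%), where 17.6% of all tested genes were higher and 14% lower. Of the 13 genes lower without the offsets, 4 stayed lower (POM121, NUP188, NUP210 and NUP62), 8 were called in neither direction and 1, NUP155, was higher. Of the 8 genes higher without the offsets, 1 stayed higher (SEC13) and 7 were called in neither direction. A further 6 genes became higher (NUP93, NUP107, NUP58, SEH1L, NDC1 and NUP133) and 1 became lower (NUP54). In a separate fit on the 4 libraries of lower mitochondrial share, also with length offsets, 14 nucleoporin genes were higher and 9 lower. There 30.1% of all tested genes were higher and 22.2% lower.

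**Figure D1:**
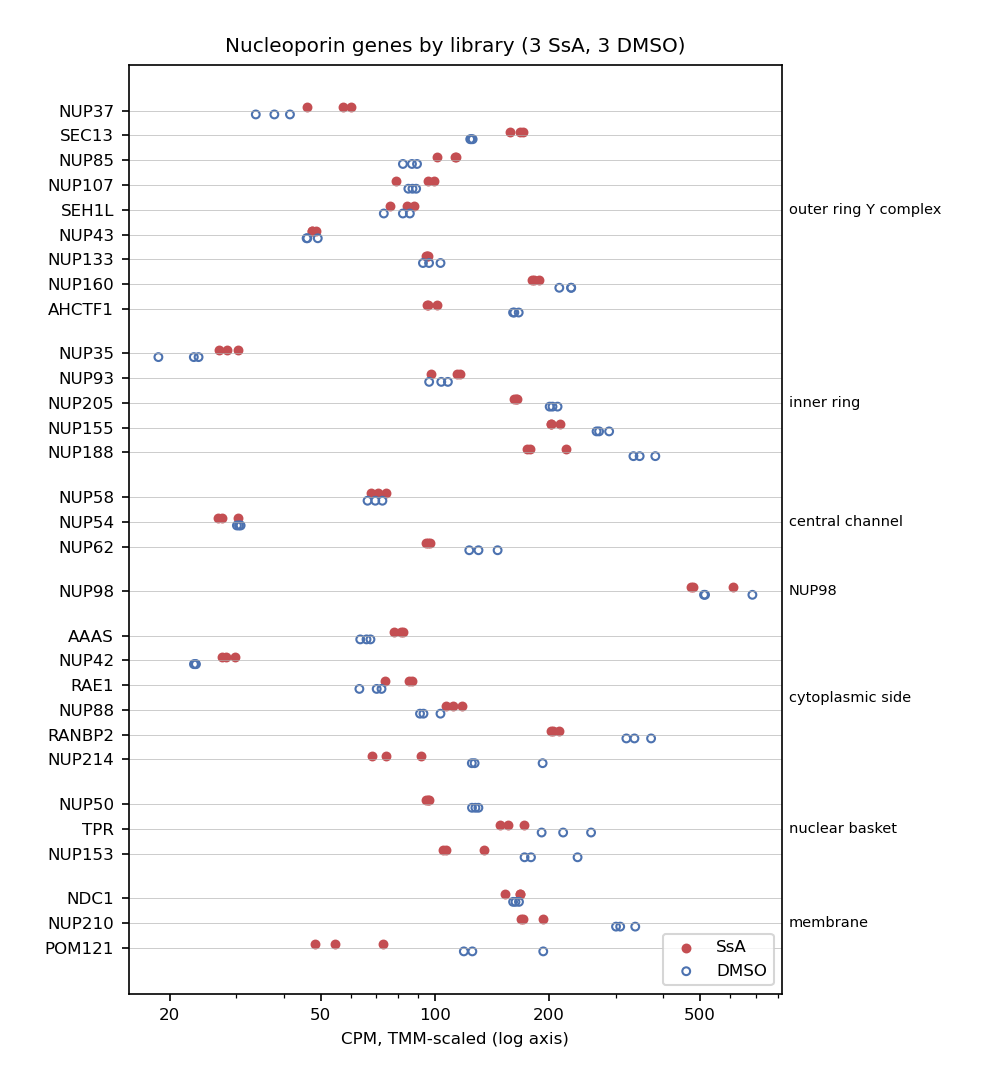
TMM-scaled CPM (counts scaled to a common library size) of the 30 tested nucleoporin genes in the 3 SsA (filled) and the 3 DMSO (open) libraries, on a log axis, grouped by place in the pore. The SsA points lie wholly left of the DMSO points in the 13 lower genes, such as POM121, and wholly right of them in the 8 higher genes, such as SEC13.

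The libraries held 57768359 to 74912492 counts, of which 199742 to 357133 fell on nucleoporin genes. The lowest count of any tested nucleoporin gene in any library was 1297. Hepatocyte transcripts were nearly absent: of 14 listed markers 8 had a row and 7 of these, including APOA1, TF, FGA, FGB, FGG and HNF4A, had a mean below 0.1 FPKM, while CPS1 had a mean of 156 FPKM. These levels do not bear out the label HepG2, a line known for making such liver proteins, so the identity of the cells is in doubt. The keratin genes KRT8 and KRT18 had means of 276 and 416 FPKM. SsA replicate 1 and DMSO replicate 3 stood apart, with 18.8% and 14.9% of their counts on mitochondrially encoded genes, against 7.62% and 8.28% in SsA replicates 2 and 3 and 6.36% and 6.19% in DMSO replicates 1 and 2. The summed level of 7 epithelial markers with a row was 811 to 978 FPKM in SsA and 662 to 841 FPKM in DMSO, with KRT8, KRT18 and SFN at 1 FPKM or more. The other 4, CDH1, EPCAM, KRT13 and TP63, had means below 0.1 FPKM, and KRT5 and KRT14 had no row. The summed level of 5 fibroblast markers was 28.1 to 34.7 FPKM in SsA and 33.4 to 44.4 FPKM in DMSO, with 3 at 1 FPKM or more. That of 3 endothelial markers was 0.457 to 0.485 FPKM in SsA and 0.831 to 0.922 FPKM in DMSO, without overlap, with VWF and PECAM1 near 0. The only leukocyte marker with a row, CD68, had 0.851 to 2.78 FPKM in SsA and 1.298 to 4.29 FPKM in DMSO. The part of these markers in the results was not tested. With the mitochondrial share as a covariate in the edgeR fit, 8 nucleoporin genes were higher and 14 lower, where 36.2% of all tested genes were higher and 35.4% lower.

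To show what the regions that start these transcripts look like, the promoter windows of 4 members are printed, for the gene with the largest fall (POM121), the one with the largest rise (NUP37) and a lower and a higher gene that both hold a cyclic AMP response element (NUP214 and NUP42). Each window runs from 250 bases before to 50 bases after a RefSeq transcript start on GRCh38.p14, 5′ to 3′ on the gene's strand. Capitals mark matches on either strand to 8 motifs. These were the CCAAT box (searched by the letters of its name), the GC box (searched as GGGCGG), the ETS motif (searched as CCGGAAGT), the E-box (searched as CACGTG), the cyclic AMP response element (searched as TGACGTCA), the promoter box of the TATA-binding protein (searched as TATAAA), the AP-1 motif (searched as TGANTCA) and the NRF1 motif.
POM121, chr7:72879107-72879406, plus strand: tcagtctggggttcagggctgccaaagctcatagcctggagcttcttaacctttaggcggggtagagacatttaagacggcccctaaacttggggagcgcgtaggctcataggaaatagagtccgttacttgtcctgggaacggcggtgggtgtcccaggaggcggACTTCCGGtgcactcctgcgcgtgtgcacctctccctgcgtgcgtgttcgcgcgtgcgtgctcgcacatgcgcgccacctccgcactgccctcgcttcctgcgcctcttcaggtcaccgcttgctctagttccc
NUP214, chr9:131125336-131125635, plus strand: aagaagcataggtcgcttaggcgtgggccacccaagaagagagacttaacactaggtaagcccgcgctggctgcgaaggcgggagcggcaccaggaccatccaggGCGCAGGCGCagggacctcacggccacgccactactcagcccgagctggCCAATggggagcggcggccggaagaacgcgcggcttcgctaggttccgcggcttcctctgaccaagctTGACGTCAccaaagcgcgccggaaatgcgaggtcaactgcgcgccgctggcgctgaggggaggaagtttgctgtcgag
NUP37, chr12:102120065-102120364, minus strand: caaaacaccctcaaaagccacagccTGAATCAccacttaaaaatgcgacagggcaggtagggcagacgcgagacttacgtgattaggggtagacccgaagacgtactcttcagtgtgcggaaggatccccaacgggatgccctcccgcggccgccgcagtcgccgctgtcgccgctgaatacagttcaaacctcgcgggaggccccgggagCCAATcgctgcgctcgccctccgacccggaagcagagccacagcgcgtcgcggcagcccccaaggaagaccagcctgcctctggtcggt
NUP42, chr7:23181798-23182097, plus strand: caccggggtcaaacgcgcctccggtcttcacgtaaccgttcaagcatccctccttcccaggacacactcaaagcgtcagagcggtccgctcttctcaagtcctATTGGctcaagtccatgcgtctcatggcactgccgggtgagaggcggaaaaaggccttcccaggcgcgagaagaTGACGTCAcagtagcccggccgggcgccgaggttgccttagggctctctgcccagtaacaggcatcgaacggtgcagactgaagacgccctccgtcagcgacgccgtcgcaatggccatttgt
The POM121 window held 1 ETS match, the NUP214 window 1 CCAAT box, 1 NRF1 match and 1 cyclic AMP response element, the NUP37 window 1 CCAAT box and 1 AP-1 match, and the NUP42 window 1 CCAAT box and 1 cyclic AMP response element. RefSeq windows were matched by symbol for 29 of the 31 genes, 38 windows in all, some of which overlap. POM121 and NUP214 have 2 windows each, of which 1 is printed, and POM121 has a GC box only in the window not printed. The counts by direction below use all windows of a gene. The ETS motif was in 18.4% of these 38 windows and in 4.14% of 35116 windows of all genes. The cyclic AMP response element was in 13.2% against 1.85%, the CCAAT box in 42.1% against 34.6%, the NRF1 motif in 10.5% against 5.78%, the GC box in 44.7% against 45%, the E-box in 5.26% against 7.26%, and the TATA box and the AP-1 motif in 2.63% each against 11.5% and 7.71%. By direction, a CCAAT box was in 5 of the 8 higher genes and in 3 of the 12 lower genes with a window, and a GC box in 2 of the 8 higher and in 7 of the 12 lower genes. The cyclic AMP response element was in 1 higher and 1 lower gene. Of the 8 uncalled genes with a window, 3 had a CCAAT box, 5 a GC box and 1 the cyclic AMP response element. A match is only a run of letters. Matches in the printed windows did not overlap each other, and these shares carry no test.

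The outer ring Y complex, the scaffold unit on both faces of the pore, was mixed: 3 of its 9 genes rose, 2 fell and 4 did not pass. AHCTF1 (chromosome 1, 246839098 to 246931948), which encodes the chromatin-binding ELYS protein that seeds new pores after mitosis, had 101, 95.8 and 95.1 CPM in SsA replicates 1, 2 and 3, against 161, 162 and 166 CPM in DMSO replicates 1, 2 and 3. All 3 SsA libraries lay below all 3 DMSO libraries. The fitted log2 fold change was -0.74 ± 0.06 (SE; p adjusted by edgeR 0.00015), the smallest p of the family, and -0.11 ± 0.05 with length offsets (edgeR adjusted p = 0.15) for a transcript of 8892 nt. With offsets for length and GC content it was lower (-0.17, edgeR adjusted p = 0.0437). SEC13 (chromosome 3, 10293131 to 10321112), a subunit that also serves in the COPII coat of vesicles leaving the endoplasmic reticulum, had 158, 168 and 171 CPM in SsA replicates 1, 2 and 3, against 126, 125 and 124 CPM in DMSO replicates 1, 2 and 3. It rose by 0.41 ± 0.06 (edgeR adjusted p = 0.00138), and by 0.18 ± 0.05 with length offsets (edgeR adjusted p = 0.0339), which became 0.02 (edgeR adjusted p = 0.805) when the longest protein-coding transcript, of 1603 nt, set the length. NUP37, a short subunit near the hub of the Y, had 46.1, 60.2 and 57.3 CPM in SsA replicates 1, 2 and 3, against 37.8, 41.5 and 33.7 CPM in DMSO replicates 1, 2 and 3, and the groups did not overlap. It rose by 0.53 ± 0.12 (edgeR adjusted p = 0.0102) and NUP85 by 0.34 ± 0.07 (SE). NUP160, a long arm of the Y, had a log2 fold change of -0.28 ± 0.06 (edgeR adjusted p = 0.00634).

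The other Y complex genes did not pass. Their log2 fold changes were 0.07 for NUP107, 0.05 for SEH1L, 0.02 for NUP43 and -0.03 for NUP133. With length offsets NUP107 (0.51 ± 0.10, edgeR adjusted p = 0.0103), SEH1L (0.35 ± 0.10, edgeR adjusted p = 0.0296) and NUP133 (0.27 ± 0.07, edgeR adjusted p = 0.0203) were higher. SEH1L has a longest transcript of 5206 nt that is not protein-coding, and a longest protein-coding one of 3494 nt. With the protein-coding length its value was 0.13 (edgeR adjusted p = 0.311), and with offsets for length and GC content it was 0.27 (edgeR adjusted p = 0.0658), so the call was lost in both.

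The inner ring, which lines the pore wall and links the scaffold to the channel, had 3 lower genes, 1 higher and 1 that did not pass. NUP188 (chromosome 9, 128947699 to 129007096), a large scaffold subunit, had 221, 179 and 175 CPM in SsA replicates 1, 2 and 3, against 334, 346 and 381 CPM in DMSO replicates 1, 2 and 3. The groups were far apart, with a log2 fold change of -0.89 ± 0.11 (SE, edgeR adjusted p = 0.000734), and NUP188 stayed lower with length offsets (-0.52 ± 0.09, edgeR adjusted p = 0.00652). Its paralogous partner in the scaffold, NUP205, fell by 0.33 ± 0.05 and had a log2 fold change of 0.10 ± 0.05 with length offsets (edgeR adjusted p = 0.167). The difference between these paralogs was not tested.

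NUP155 (chromosome 5, 37288137 to 37371106), which ties the inner ring to the membrane, was the member whose call changed direction. It had 213, 203 and 202 CPM in SsA replicates 1, 2 and 3, against 267, 271 and 288 CPM in DMSO replicates 1, 2 and 3, without overlap. The fitted log2 fold change, with its SE, was -0.42 ± 0.06 (edgeR adjusted p = 0.00148), but 0.17 ± 0.05 with length offsets (edgeR adjusted p = 0.042) and 0.11 with offsets for length and GC content (edgeR adjusted p = 0.149). Its transcript is of 8143 nt. For protein-coding genes of 7000 nt or more the median was -0.62, with quartiles of -0.97 and -0.28, and NUP155 lay between these quartiles. With the replicate block and length offsets it was 0.17 and not called (edgeR adjusted p = 0.161). NUP35, an adaptor of the inner ring, had 28.4, 26.9 and 30.2 CPM in SsA replicates 1, 2 and 3, against 18.7, 23.8 and 23.2 CPM in DMSO replicates 1, 2 and 3. Its log2 fold change was 0.38 ± 0.11 (edgeR adjusted p = 0.0245), a call lost without DMSO replicate 1 (edgeR adjusted p = 0.0634) and without SsA replicate 3 (edgeR adjusted p = 0.0843). NUP93, the linker that recruits the channel proteins, had 0.09 ± 0.09 without length offsets and 0.68 ± 0.10 with them (edgeR adjusted p = 0.00253), the largest value of the family in that fit.

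The central channel is filled by NUP62, NUP54 and NUP58, repeat proteins that assemble with each other, and of these genes only NUP62 passed without length offsets. NUP62 (chromosome 19, 49906825 to 49929763) had 94.6, 97.2 and 95.97 CPM in SsA replicates 1, 2 and 3, against 123, 130.3 and 146 CPM in DMSO replicates 1, 2 and 3. The SsA libraries were nearly equal and all below DMSO. Its log2 fold change of -0.47 ± 0.08 (SE, edgeR adjusted p = 0.00227) hardly moved with length offsets (-0.43 ± 0.07, edgeR adjusted p = 0.00552), its transcript being of 3590 nt. NUP54 and NUP58 had log2 fold changes of -0.11 ± 0.07 and 0.03 ± 0.07 without the offsets. With them NUP54 was lower (-0.34 ± 0.07, edgeR adjusted p = 0.0115) and NUP58 was higher (0.46 ± 0.06, edgeR adjusted p = 0.00187). The differences between these genes were not tested.

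NUP98 (chromosome 11, 3671083 to 3797792) encodes a precursor that is cut into the repeat protein NUP98 and the Y complex subunit NUP96, and it had the highest level of the family per length, 42.4 ± 3.45 FPKM in SsA and 51.9 ± 4.28 FPKM in DMSO (SD, n = 3 each). It had 612, 478 and 473 CPM in SsA replicates 1, 2 and 3, against 515, 512 and 687 CPM in DMSO replicates 1, 2 and 3. SsA replicate 1 overlapped the DMSO libraries, and the log2 fold change of -0.13 ± 0.15 did not pass (edgeR adjusted p = 0.482). Both high values came from the libraries of high mitochondrial share. Without these libraries NUP98 was lower (-0.14, edgeR adjusted p = 0.00316), and with the mitochondrial share as a covariate likewise (-0.23, edgeR adjusted p = 0.000541). Length offsets turned the direction, to 0.37 in all libraries (edgeR adjusted p = 0.0724) and to 0.38, called higher, in the 4 libraries of lower mitochondrial share (edgeR adjusted p = 2.16e-05).

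On the cytoplasmic side, 4 of 6 genes rose and 2 fell. RANBP2 (chromosome 2, 108719482 to 108785809), which encodes the filament protein NUP358, a SUMO ligase that binds Ran, had 202, 213 and 205 CPM in SsA replicates 1, 2 and 3, against 336, 319.6 and 371 CPM in DMSO replicates 1, 2 and 3. No SsA library came near the DMSO range. The fitted log2 fold change, with its SE, was -0.73 ± 0.07 (edgeR adjusted p = 0.000367), and 0.06 ± 0.06 with length offsets (edgeR adjusted p = 0.502), RANBP2 having the longest transcript of the family. Its near-identical RGPD copies could share reads with it, so its value is uncertain; of these, RGPD5, RGPD6 and RGPD8 had log2 fold changes of -0.43, -0.47 and -0.47. NUP214, the docking site of the export helicase, fell by 0.92 ± 0.19 and had -0.37 ± 0.17 with length offsets (edgeR adjusted p = 0.131).

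AAAS (chromosome 12, 53307456 to 53324864), whose product ALADIN is mutated in triple A syndrome, had 78.0, 82.2 and 81.2 CPM in SsA replicates 1, 2 and 3, against 63.6, 66.0 and 67.6 CPM in DMSO replicates 1, 2 and 3. The groups were apart, and AAAS rose by 0.29 ± 0.06 (SE, edgeR adjusted p = 0.00598). With length offsets its value was -0.02 ± 0.06 (edgeR adjusted p = 0.832). NUP42, a partner of the export factor GLE1, rose by 0.29 ± 0.07. RAE1, an mRNA export factor bound to NUP98, and NUP88, the partner of NUP214, rose by 0.26 ± 0.09 and 0.22 ± 0.07 (edgeR adjusted p = 0.0432 and 0.0376). Each of these last calls was lost in 5 of the 6 fits that leave out 1 library, RAE1 in all but the fit without SsA replicate 1 and NUP88 in all but the fit without DMSO replicate 3, with edgeR adjusted p up to 0.14 for RAE1 and up to 0.127 for NUP88.

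All 3 genes of the nuclear basket fell. NUP153 (chromosome 6, 17615035 to 17706834), which anchors the basket and binds importins, had 134, 107 and 105 CPM in SsA replicates 1, 2 and 3, against 179, 172 and 238 CPM in DMSO replicates 1, 2 and 3. The highest library of each group was that of high mitochondrial share, yet the groups did not overlap. The fitted log2 fold change, with its SE, was -0.77 ± 0.15 (edgeR adjusted p = 0.00534), and -0.36 ± 0.13 with length offsets (edgeR adjusted p = 0.0784). NUP50 (chromosome 22, 45163925 to 45188017), a mobile nucleoporin that binds importin alpha, had 96.4, 95.8 and 94.5 CPM in SsA replicates 1, 2 and 3, against 130.2, 128 and 125 CPM in DMSO replicates 1, 2 and 3. It varied little within groups and fell by 0.42 ± 0.05 (edgeR adjusted p = 0.000889). TPR, the coiled-coil protein of the basket filaments, fell by 0.49 ± 0.12. With length offsets NUP50 had -0.11 ± 0.06 and TPR 0.20 ± 0.10 (edgeR adjusted p = 0.17 and 0.158).

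Of the 3 membrane nucleoporin genes, NUP210 and POM121 fell and NDC1 did not pass. NUP210 (chromosome 3, 13316235 to 13420322), a glycoprotein with most of its mass in the lumen of the envelope, had 192, 171 and 169 CPM in SsA replicates 1, 2 and 3, against 300.2, 308 and 337 CPM in DMSO replicates 1, 2 and 3. The gap between groups was wide, with a log2 fold change of -0.83 ± 0.08 (SE, edgeR adjusted p = 0.000308) and of -0.32 ± 0.06 with length offsets (edgeR adjusted p = 0.0102). NDC1 (chromosome 1, 53765478 to 53838463), which spans the membrane and holds ALADIN in place, had 153, 168 and 168 CPM in SsA replicates 1, 2 and 3, against 167, 163 and 161 CPM in DMSO replicates 1, 2 and 3. The groups overlapped, and the value of -0.00 ± 0.06 (edgeR adjusted p = 0.958) became 0.29 ± 0.07 with length offsets (edgeR adjusted p = 0.0151).

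POM121 (chromosome 7, 72879365 to 72951440), a membrane anchor needed for pore insertion in interphase, is given in full because of its values. It had 72.8, 54.5 and 48.4 CPM in SsA replicates 1, 2 and 3, against 126, 119 and 193 CPM in DMSO replicates 1, 2 and 3. All SsA libraries lay below all DMSO libraries, although the DMSO libraries varied widely. The fitted log2 fold change, with its SE, was -1.32 ± 0.23 (edgeR adjusted p = 0.00297), the only at least 2-fold change of the family, and -0.82 ± 0.20 with length offsets (edgeR adjusted p = 0.0209). Its near-identical copy POM121C had -1.22 ± 0.23 (edgeR adjusted p = 0.0047), and the authors' counting could split reads between these copies, so the values of each are uncertain. NUP210L, a testis relative of NUP210, had at most 0.0142 FPKM in any library and was not tested.

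**Figure D2:**
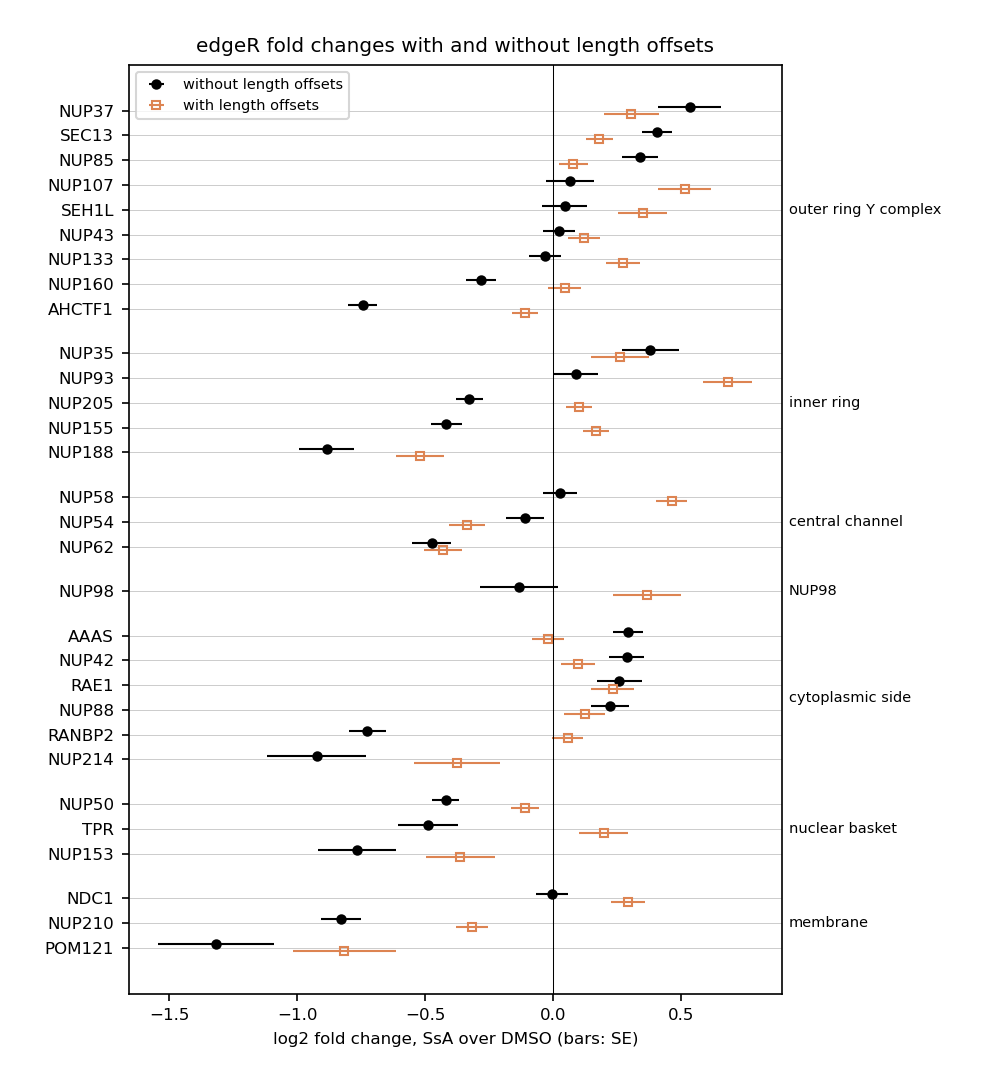
log2 fold change (SsA over DMSO) of each tested nucleoporin gene with its SE, from the edgeR fit without (filled circles) and with (open squares) length offsets, grouped by place in the pore. POM121, NUP188, NUP210 and NUP62 lie below 0 and pass the threshold in both fits, while NUP155, at -0.42 and 0.17, passes it on opposite sides. NUP214, NUP153, AHCTF1, NUP50 and NUP54 also lie below 0 in both fits, but each passes in only a single fit.

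Per length, the summed level of the 31 genes was lower in SsA. It was 380, 418 and 410.1 FPKM in SsA replicates 1, 2 and 3, against 542, 544 and 513 FPKM in DMSO replicates 1, 2 and 3, which is a mean of 402 ± 20.1 FPKM in SsA and 533 ± 17.1 FPKM in DMSO (SD, n = 3 each). On the scale of TMM-scaled CPM the sums were 3699 ± 113 in SsA and 4626 ± 318 in DMSO. Both scales are relative to library size, and in bulk RNA a smaller share of cells of a type and less of a transcript per cell cannot be told apart. The makeup of the sum differed too. Y complex genes made up 27.1 to 30.2% of the summed FPKM in SsA libraries and 21.4 to 24.9% in DMSO libraries. Inner ring genes made up 16.7 to 17.4% in SsA and 19.4 to 20.2% in DMSO, membrane genes 12.5 to 12.6% in SsA and 14.8 to 15.2% in DMSO, and basket genes 8.34 to 9.39% in SsA and 10.4 to 11.96% in DMSO. Genes of the cytoplasmic side made up 15.6 to 16.3% in SsA and 14.6 to 14.8% in DMSO. The ranges did not overlap in these 5 groups of genes and overlapped for the central channel and NUP98, and no test was made of them. The shares are parts of the same sum, so they do not move independently. Of all tested genes, 62.8% had no overlap in CPM. FPKM does not remove the trend on transcript length. With length offsets the median log2 fold change went from -0.33 to 0.17 in the inner ring and from -0.83 to -0.32 in membrane genes. It went from -0.49 to -0.11 in basket, from 0.045 to 0.18 in Y complex and from 0.24 to 0.08 in cytoplasmic-side genes.

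**Figure D3:**
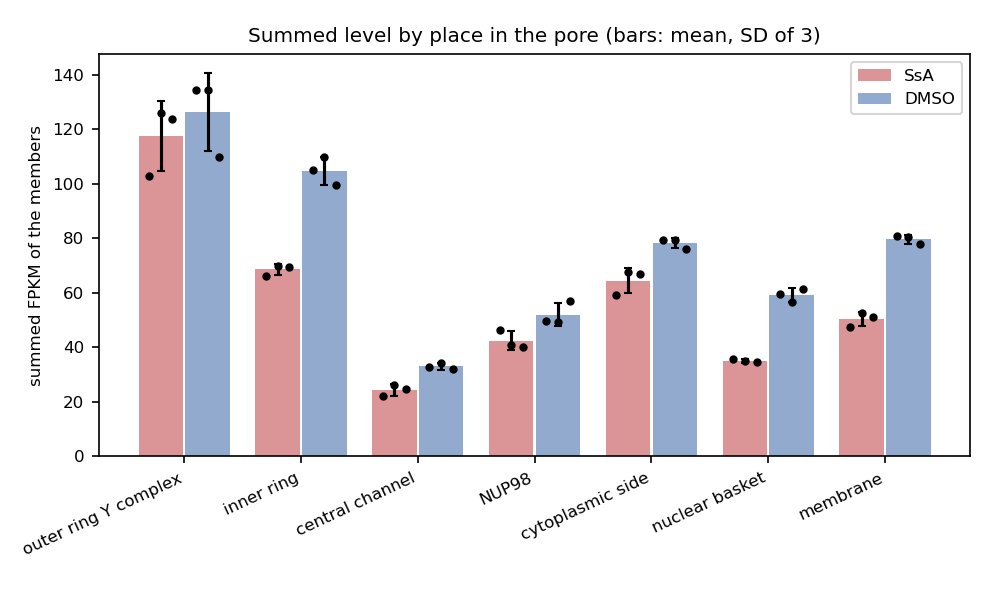
Summed FPKM of the nucleoporin genes by place in the pore, as means (bars) with the SD of 3 libraries and each library as a point, SsA left of DMSO. The inner ring sum was 68.6 ± 2.11 FPKM in SsA and 105 ± 5.11 FPKM in DMSO, while the Y complex sums, 118 ± 12.7 FPKM in SsA and 126 ± 14.3 FPKM in DMSO, overlapped.

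Set beside genes of like length, the nucleoporin genes spread to both sides of the trend. The Spearman correlation of log2 fold change with length was -0.70 over the 30 genes, which share their libraries, and -0.72 over all tested protein-coding genes. Among transcripts of 7000 nt or more, 7 of 9 nucleoporin genes were lower, where 77.8% of 1241 protein-coding genes were lower, and the medians were -0.73 and -0.62. From 5000 to below 7000 nt, 5 of 10 were lower, where 59.9% of 1668 genes were, and 5 of the 10 lay above the upper quartile of -0.10 while 2 lay below the lower quartile of -0.64. Below 3000 nt, 7 of 8 were higher, where 52.3% of 3851 genes were. From 3000 to below 5000 nt, 1 of 3 was higher and 1 lower, where 14.8% of 3280 genes were higher and 26.3% lower. In GC content the 30 longest transcripts ranged from 36.4% in NUP58 to 58.4% in NUP62. The 4 genes lower in both fits, POM121 (57.7%), NUP188 (52.5%), NUP210 (58.4%) and NUP62, were among the 8 genes of at least 50% GC. With length offsets the Spearman correlation of log2 fold change with GC content was -0.47 over the 30 genes and -0.11 over all tested protein-coding genes. With offsets for length and GC content these 4 genes stayed lower, with edgeR adjusted p from 0.00894 for NUP188 to 0.0286 for POM121. The replicate block with length offsets left 2 nucleoporin genes lower, where 890 of all tested genes were lower. NUP188 was called there (-0.53, edgeR adjusted p = 0.0375) and NUP210 was not (-0.32, edgeR adjusted p = 0.0604).

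**Figure D4:**
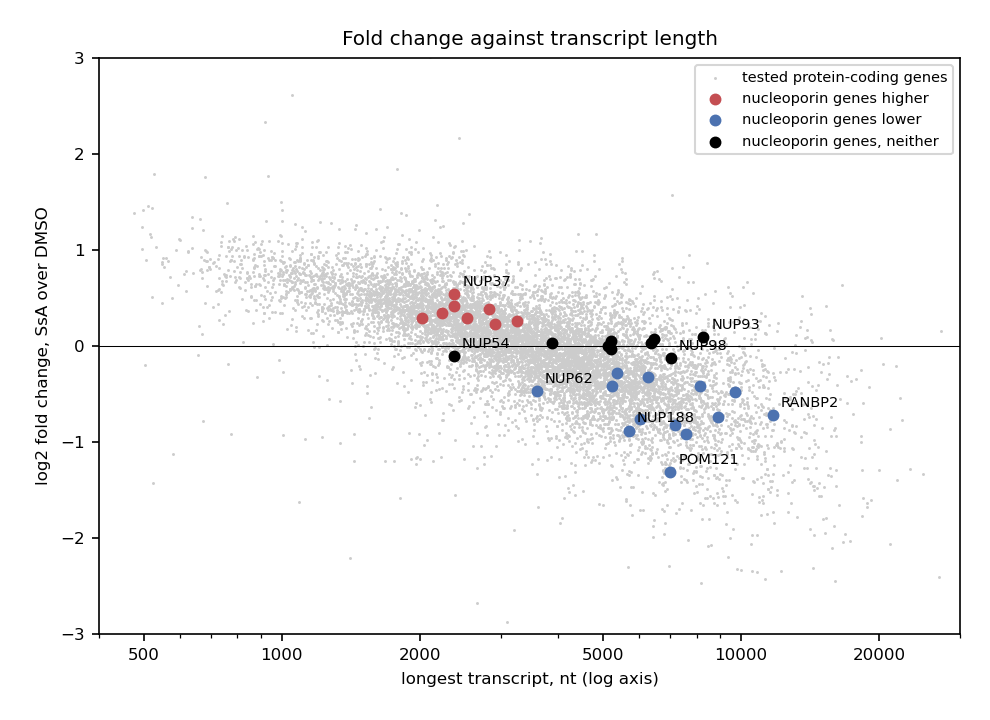
log2 fold change (SsA over DMSO) against the length of the longest transcript on a log axis, for tested protein-coding genes (grey; 20 points lie outside the axes) and the 30 tested nucleoporin genes (coloured by call). The 8 higher nucleoporin genes lie at transcripts of up to 3251 nt (RAE1), and the 13 lower ones at 3590 nt (NUP62) or more.

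The libraries of high mitochondrial share moved part of the family in the same way within each group. In SsA replicate 1, POM121 was 0.50 above the mean of SsA replicates 2 and 3 in log2 CPM, and in DMSO replicate 3 it was 0.66 above the mean of DMSO replicates 1 and 2. For NUP214 these differences were 0.37 in SsA and 0.61 in DMSO, for NUP153 0.34 and 0.43, and for NUP98 0.36 and 0.42. NUP37 was lower in both, by -0.35 in SsA and -0.23 in DMSO. The sign was shared by 22 of 30 nucleoporin genes (73.3%) and by 76.7% of all tested genes, so the family is near the background in this respect. Between these 2 libraries alone the log2 fold change (SsA replicate 1 over DMSO replicate 3) was -1.40 for POM121 and 0.45 for NUP37, and in the other 4 libraries it was -1.24 for POM121 and 0.56 for NUP37.

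**Figure D5:**
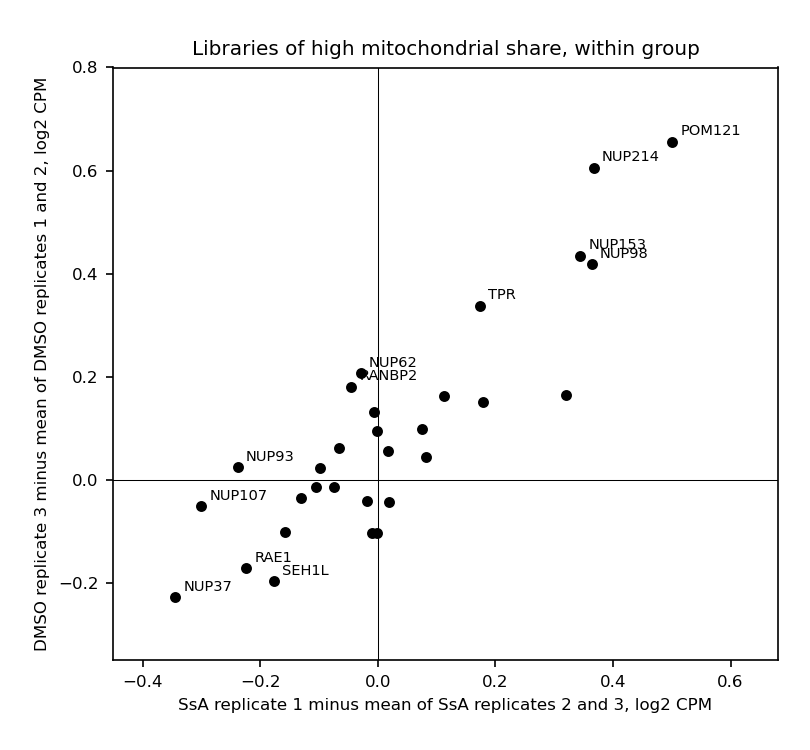
Difference in log2 CPM between SsA replicate 1 and the mean of SsA replicates 2 and 3 (horizontal) and between DMSO replicate 3 and the mean of DMSO replicates 1 and 2 (vertical), 1 point per tested nucleoporin gene. POM121 and NUP214 are at the upper right, and NUP37 is at the lower left with -0.35 and -0.23.

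The soluble carriers that cross the pore moved in both directions. Importins and exportins bind cargo and the GTPase Ran, whose GTP-bound form is made in the nucleus by RCC1. Of 31 tested genes of transport receptors and the Ran cycle, 7 rose and 11 fell, around a median log2 fold change of -0.10. Of all tested genes, 25.9% rose and 27.9% fell, around a median of 0.03. The split was 1 higher and 13 lower by limma on FPKM, 0 and 4 on TPM (0 and 12 at an unadjusted p below 0.05), and 11 and 2 with length offsets. The shares of all tested genes higher and lower were 8% and 32.6% on FPKM, 0.429% and 21.4% on TPM, and 17.6% and 14% with length offsets. RAN had 879, 1072 and 1082 CPM in SsA replicates 1, 2 and 3, against 633, 653 and 555 CPM in DMSO replicates 1, 2 and 3, and rose by 0.72 ± 0.11 (SE, edgeR adjusted p = 0.00179). RANBP1, which helps Ran hydrolyse GTP, rose by 0.58 ± 0.05 and RCC1 by 0.39 ± 0.08. Each of these 3 genes was also higher with length offsets, at 0.56, 0.31 and 0.27. Among the carriers XPO6, the actin exporter, fell by 0.63 ± 0.08, the transportin TNPO2 by 0.51 ± 0.07 and the pre-miRNA exporter XPO5 by 0.38 ± 0.06. XPO6 and TNPO2 were also lower with length offsets (-0.44 and -0.22), and XPO5 was not called (-0.05, edgeR adjusted p = 0.479).

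Of 23 tested mRNA export genes, 10 rose and 3 fell, around a median of 0.21, where 25.9% of all tested genes rose and 27.9% fell. The shares of all tested genes in the other fits are those given for the transport genes. The split was 2 higher and 4 lower by limma on FPKM, 0 and 1 on TPM (0 and 4 at an unadjusted p below 0.05), and 7 and 1 with length offsets. The adaptor gene ALYREF (0.56 ± 0.07) and the TREX subunit genes THOC3 (0.60 ± 0.08) and THOC6 (0.42 ± 0.07) rose. Their transcripts are short, of 1088, 1796 and 1419 nt, and 52.3% of all tested protein-coding genes below 3000 nt rose. MCM3AP, the scaffold of the TREX-2 complex at the basket, fell by 0.78 ± 0.08 on the log2 scale, to 76.0 ± 5.37 CPM in SsA, against 131 ± 10.02 CPM in DMSO (SD, n = 3 each; edgeR adjusted p = 0.000471), and was lower with length offsets too (-0.35, edgeR adjusted p = 0.0326). THOC2 and the helicase gene DDX39B fell by 0.32 ± 0.06 and 0.22 ± 0.06. With length offsets THOC3 stayed higher (0.24, edgeR adjusted p = 0.037), while ALYREF (0.06, edgeR adjusted p = 0.629), THOC6 (-0.02, edgeR adjusted p = 0.871), THOC2 (0.04, edgeR adjusted p = 0.616) and DDX39B (0.08, edgeR adjusted p = 0.2999) were not called.

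Of 20 tested genes of the nuclear lamina and inner nuclear membrane, 3 rose and 6 fell, around a median of -0.05. The shares of all tested genes were 25.9% higher and 27.9% lower, and those in the other fits are given with the transport genes. The split was 2 higher and 7 lower by limma on FPKM, 0 and 2 on TPM (0 and 6 at an unadjusted p below 0.05), and 4 and 2 with length offsets. SYNE2, which encodes the giant linker nesprin-2, had 82.9, 72.0 and 73.7 CPM in SsA replicates 1, 2 and 3, against 198, 189.6 and 217 CPM in DMSO replicates 1, 2 and 3. The fitted log2 fold change, with its SE, was -1.40 ± 0.08 (edgeR adjusted p = 7.78e-05), and -0.33 with length offsets (edgeR adjusted p = 0.0136) for a transcript of 21842 nt. TMEM201 and ANKLE2 fell by 0.46 ± 0.08 and 0.37 ± 0.08. BANF1, a small chromatin-binding protein of the envelope, rose by 0.89 ± 0.07, the emerin gene EMD by 0.55 ± 0.07 and ZMPSTE24, the protease that matures lamin A, by 0.20 ± 0.06. With length offsets ANKLE2 was higher (0.37, edgeR adjusted p = 0.0226), TMEM201 lower (-0.36) and BANF1 higher (0.41), while EMD and ZMPSTE24 were not called.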

How the data were processed

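RNA-seq libraries, 3 of the SsA group and 3 of the DMSO group, were compared. Per the labels' protocols, mRNA was captured on oligo(dT) beads, fragmented and made into dUTP libraries. Per the submitters' processing notes, the build was GRCh38 and the tools included StringTie 1.3.4d, HISAT2 2.0.4 and cutadapt 1.9. Their settings, the strand setting and the counting step were not given in the labels used here. The deposited table holds whole-number counts and FPKM values that the authors had divided by gene length and library size, per the file headers. Exons of 7 nucleoporin genes overlap another gene on the same strand and of 14 on the opposite strand in GENCODE 29, so their counts carry that uncertainty.

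The 11427 genes that reached 1 FPKM in 3 or more libraries were tested with edgeR 4.0.16 in R 4.3.3 (TMM, quasi-likelihood, two-sided, Benjamini-Hochberg over all tested genes, threshold 0.05). Each SE is the absolute log2 fold change over the root of its F statistic. Lengths are those of the longest GENCODE 29 transcript (99.6% of tested genes had one), and length offsets are per-library natural splines with 4 degrees of freedom. DESeq2 1.42.0 and limma 3.58.1 (on log2 of FPKM or TPM plus 1, or FPKM plus 0.1, with an intensity trend) were alternatives, as were other filters, offsets, a mitochondrial covariate and leaving out libraries. The scripts were tested on simulated data. The members, gene lists, named genes (per place the called gene of smallest p in each direction, the highest level, and calls of opposite sign between fits; in other lists the 3 of smallest p per direction) and tests were chosen with earlier results of these data known. POM121 was named in full after its values were seen.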

Additional observations from a re-analysis of the deposited data

How the results depend on the processing

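The 13 lower nucleoporin genes numbered 13 in each fit that left out 1 library, while the higher genes numbered 5 to 7 (5 without SsA replicate 3 and 5 without DMSO replicate 1) and the median log2 fold change ran from -0.08 to -0.05. Leaving out 1 library gave 5 to 7 higher and 7 to 10 lower transport genes, 7 to 12 higher and 2 to 4 lower mRNA export genes, 2 to 5 higher and 4 to 8 lower lamina genes, and 2005 to 3153 higher and 2594 to 3249 lower genes in all. The cause of the changes below was not tested, except that stricter filters test fewer genes. Lists of changed signs hold genes called in the first edgeR fit or in the fit named, unless stated. A mean FPKM of at least 5 left 6197 genes to test, of which 1666 were called higher and 1762 lower. Under this filter 4 nucleoporin genes rose and 14 fell, and the nucleoporin median was -0.19. Without a filter 7 transport genes were lower and the nucleoporin median was 0.024.

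By limma, log2(FPKM + 1) gave 914 higher genes, 0 higher nucleoporin, 1 higher transport and 2 higher mRNA export genes and a nucleoporin median of -0.21; log2(FPKM + 0.1) gave 886, 0, 1 and 2 and a median of -0.23. On log2(TPM + 1) 49 genes were higher, with 0 nucleoporin, 0 transport, 0 mRNA export and 0 lamina genes higher, 4 transport, 1 mRNA export and 2 lamina genes lower, and a nucleoporin median of -0.42. There AAAS (-0.070), RAE1 (-0.10), NUP88 (-0.14), NUP85 (-0.026) and NUP42 (-0.072), called higher in the first edgeR fit, changed sign. So did NUP93 (-0.27), NUP107 (-0.29), SEH1L (-0.30), NUP43 (-0.33) and NUP58 (-0.32), which were called in neither fit.

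Length offsets gave 1603 lower genes, 5 lower nucleoporin, 11 higher and 2 lower transport, 1 lower mRNA export and 2 lower lamina genes and a median of 0.11, with changed signs for NUP160 (0.045), TPR (0.20), NDC1 (0.29), NUP133 (0.27), AAAS (-0.020), NUP155 (0.17), RANBP2 (0.058) and NUP205 (0.10). Length and GC offsets gave 1611 lower genes, 6 lower nucleoporin, 11 higher and 1 lower transport, 5 higher and 0 lower mRNA export and 2 lower lamina genes and a median of 0.085, with changed signs for TPR (0.14), NDC1 (0.22), NUP133 (0.22), NUP155 (0.11), RANBP2 (0.0097) and NUP205 (0.064). Offsets by the longest protein-coding transcript, chosen after seeing the data, gave 1809 higher and 1470 lower genes, 5 lower nucleoporin, 1 lower transport, 5 higher and 1 lower mRNA export, 5 higher and 2 lower lamina genes and a median of 0.089, with changed signs for NUP160 (0.087), TPR (0.21), NDC1 (0.34), NUP133 (0.32), AAAS (-0.034), NUP155 (0.19), NUP42 (-0.0499), RANBP2 (0.067) and NUP205 (0.14). Length offsets in the 4 libraries of lower mitochondrial share, also chosen after seeing the data, gave 3440 higher and 2539 lower genes in all, 14 higher and 9 lower nucleoporin, 17 higher and 3 lower transport and 9 higher lamina genes and a median of 0.12, with changed signs for NUP160 (0.0081), TPR (0.24), NDC1 (0.32), NUP133 (0.23), NUP98 (0.38), NUP155 (0.17), RANBP2 (0.12) and NUP205 (0.11). NUP98 also changed sign, without a call, with length offsets (0.37), length and GC offsets (0.40) and offsets by the protein-coding length (0.40). The mitochondrial covariate gave 6 higher and 9 lower lamina genes, where 4132 of all tested genes were higher and 4042 lower. Leaving out both libraries of high mitochondrial share gave 6 higher and 10 lower lamina genes, where 3801 of all tested genes were higher and 3946 lower.

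Same-numbered samples deviated together for replicate 2 (correlation 0.397) but not for replicates 1 and 3 (-0.445 and -0.470). Samples of unlike number did so too, at 0.658 for SsA replicate 1 with DMSO replicate 3 and 0.375 for SsA replicate 3 with DMSO replicate 2. SsA replicate 1 and DMSO replicate 3 are those of high mitochondrial share, so these correlations cannot tell whether the replicates were paired by design. With the replicate block 4 nucleoporin genes were higher and 13 lower, and 5 transport genes were higher and 7 lower. In that fit 2074 of all tested genes were higher and 2542 lower, against 2956 and 3190 without the block. The replicate block with length offsets gave 1072 higher and 890 lower genes, 3 higher and 2 lower nucleoporin, 1 lower transport, 1 higher and 0 lower mRNA export and 0 lower lamina genes and a median of 0.11, with changed signs for NUP160 (0.047), TPR (0.20), AAAS (-0.019), NUP155 (0.17), RANBP2 (0.058) and NUP205 (0.10). NDC1 (0.29), NUP133 (0.28) and NUP98 (0.37) changed sign there without a call.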
